A study of Mus musculus with 4 samples.

Results

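MicroRNAs (miRNAs) of P815 mast cells treated with imatinib were compared with those of primary bone marrow derived mast cells (BMMC) starved of stem cell factor (SCF), on 1 array for each cell type. These are 2 of the 4 arrays of the study, and they hold the cell-type contrast in which KIT is not stimulated in BMMC and is treated with an inhibitor in P815. The miRNAs were taken as the perfect-match probes named for mouse, human or rat with a miR or let name, 678 of the 1406 features on an array. They were reduced to 1 probe for each of 389 mouse miRNA names, which are called miRNAs here. P815 is an established mouse mast cell line. Its label gives a D814V mutation in KIT, the receptor tyrosine kinase for SCF, and it was grown in media free of cytokines and given imatinib, a tyrosine kinase inhibitor, at 10 nM for 24 h. BMMC are non-transformed cells that were grown in SCF and interleukin 3, and the BMMC array used here comes from cells kept without SCF for a time the labels do not give. The remaining pair of arrays holds BMMC with SCF at 100 ng per cc for 24 h and P815 without imatinib, and is called the KIT-active pair after its treatments. The labels name no strain, age or number of animals for BMMC, and P815 is a single line. KIT activity was not measured, and mutations of this part of KIT are known from the human receptor to make it resistant to imatinib, so that the P815 array is of cells given imatinib and not of cells shown to lack KIT signalling. With 1 array in each group there is no replicate error, no test was run, and higher and lower describe the arrays compared.

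KIT and its ligand sustain the growth, survival and maturation of mast cells, and activating mutations of KIT drive mast cell neoplasms. miRNAs are short RNAs that repress messenger RNAs by pairing through the seed, the stretch of bases near the 5′ end, so miRNAs that share a seed share many targets. Many miRNAs are cut from a common primary transcript, and miRNAs that restrain growth or mark differentiation (let-7, miR-15 and miR-16, miR-26, miR-29) are often low in tumour lines, whereas the miR-17-92 clusters promote proliferation.

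The mature sequences of the miRNAs on which the contrast turns are shown here as RefSeq gives them on GRCm38.p6, 5′ to 3′, with the seed (bases 2 to 8) in capitals. The first set holds miRNAs that were lower in P815 with imatinib, grouped by shared seed where one is shared.
miR-27a: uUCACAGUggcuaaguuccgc
miR-27b: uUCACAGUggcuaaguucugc
miR-103: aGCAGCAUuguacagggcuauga
miR-107: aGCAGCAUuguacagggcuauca
miR-221: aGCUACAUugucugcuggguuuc
miR-222: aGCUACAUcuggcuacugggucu
miR-29a: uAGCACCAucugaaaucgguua
miR-29c: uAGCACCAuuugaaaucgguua
miR-146b: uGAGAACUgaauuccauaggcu
miR-210: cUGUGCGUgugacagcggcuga
miR-10a: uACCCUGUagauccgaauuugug
miR-26a: uUCAAGUAauccaggauaggcu
The next set holds miRNAs that were higher, led by 4 that share the AAAGUGC seed and come from 2 paralogous clusters.
miR-17-5p: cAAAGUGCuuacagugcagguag
miR-20a: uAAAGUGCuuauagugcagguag
miR-20b: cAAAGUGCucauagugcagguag
miR-106a: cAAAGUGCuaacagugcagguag
miR-128: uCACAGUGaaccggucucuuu
miR-193b: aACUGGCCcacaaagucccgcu
miR-691: aUUCCUGAagagaggcagaaaa

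Several of these differ by a single base, which limits how far hybridization can separate them. Counted from 1 at the 5′ end, miR-27b differs from miR-27a by C19U, miR-107 from miR-103 by G22C, miR-106a from miR-17-5p by U10A and miR-29c from miR-29a by C10U. miR-20b differs from miR-20a at 2 positions, U1C and U10C. miR-146b lies at chr19:46342790-46342811 on the plus strand, miR-210 at chr7:141221407-141221428 on the minus strand and miR-10a at chr11:96317186-96317208 on the plus strand. miR-27a lies at chr8:84208727-84208747 and miR-27b at chr13:63300760-63300780, both on the plus strand. miR-193b lies at chr16:13449570-13449591 on the plus strand, miR-17-5p and miR-20a lie on chromosome 14, and miR-20b and miR-106a on chromosome X. A mature sequence was matched for 185 of the 389 miRNAs, 143 of them among the 259 compared. Across these 143, which share both arrays, the log2 difference correlated with GC content at r = 0.15.

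Intensities are arbitrary units on a linear scale and are given as deposited. A probe is called listed on an array where its intensity was at least 1.5 times that array's median mismatch probe, which is the limit the authors applied. Differences are log2 values of P815 with imatinib minus BMMC without SCF after background correction and quantile normalization. Where a miRNA was listed on 1 array only, the fold is a bound and is written as at least so many fold.

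The main difference lay among miRNAs lower in P815 with imatinib, most of them read from human-named probes. Of 389 mouse miRNAs, 259 were listed on at least 1 of the 2 arrays, 164 on both, 90 in BMMC only and 5 in P815 only. At least 2-fold lower in P815 were 39 miRNAs (15.1%), and 19 (7.34%) were at least 2-fold higher. With differences taken at their bounds the counts were 31 and 19. The median difference was -0.08 with an SD of 0.97 across miRNAs. Of 142 listed miRNAs read from human-named probes, 33 (23.2%) were lower and 9 (6.34%) higher. Of 108 read from mouse-named probes, 6 (5.56%) were lower and 9 (8.33%) higher, so the balance was not the same there. Over the 423 listed probes of all 3 species names, 48 (11.3%) were lower and 31 (7.33%) were higher. Probes named for virus and worm miRNAs gave a background measured in the same way: of 60 listed, 2 (3.33%) were lower and 6 (10%) were higher. The share of mouse miRNAs that were higher was therefore not above that of the virus and worm probes, and the share that were lower was above it.

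The arrays also differed in brightness and background. The median intensity of the 678 probes was 514 in BMMC without SCF and 234 in P815 with imatinib, and the median mismatch probe read 296 and 180.0. In intensity as deposited, 0 of the 39 lower miRNAs and 11 of the 19 higher miRNAs were brighter in P815. Mismatch probes, which carry 2 changed bases, lay above 0 on the normalized scale: of 159 listed, 46 were at least 2-fold higher in P815 and 0 were lower, with a median difference of 0.70. For the 37 lower miRNAs that had a mismatch probe, the median difference was -1.59 over the lower miRNAs and 0.41 over their mismatch probes, and 0 of the mismatch probes were 2-fold lower. The matched probe was at least 2 times as bright as its mismatch for 36 of these 37 in BMMC and for 16 in P815. For the 13 higher miRNAs with a mismatch probe the mismatch median was 0.50, against 1.56 over the higher miRNAs, and 2 mismatch probes, those of miR-294 and miR-539, were 2-fold higher too. The part of this mismatch shift in the higher values was not tested. In these bulk samples, fewer cells that express a miRNA and less of it per cell cannot be told apart.

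**Figure D1:**
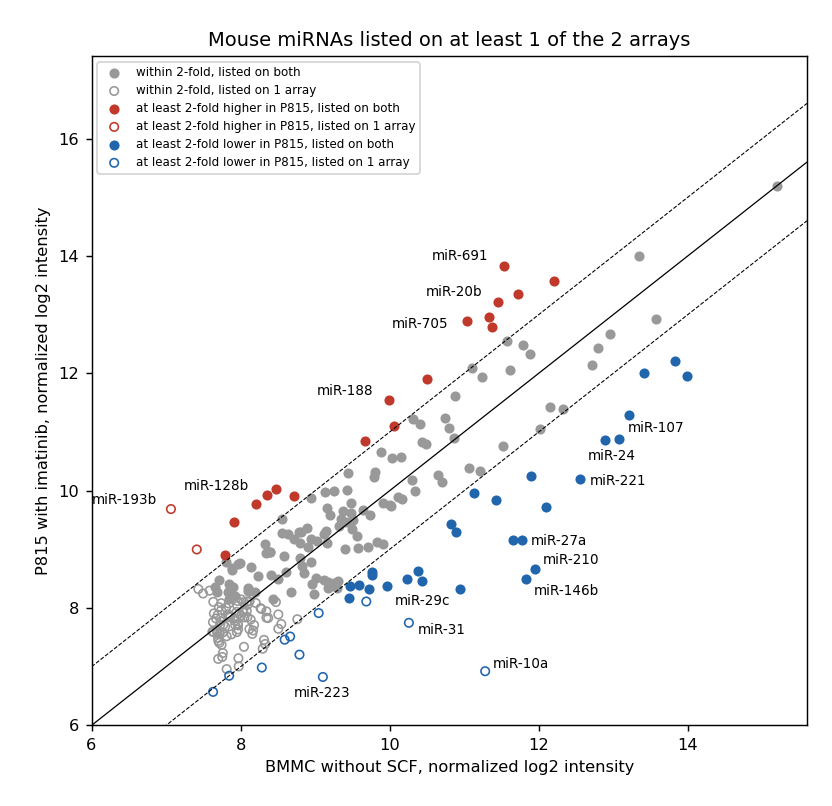
Normalized log2 intensity of each of the 259 mouse miRNAs listed on at least 1 array, in BMMC without SCF (horizontal) and P815 with imatinib (vertical), with the line of equality and dashed lines at 2-fold. The 39 lower miRNAs reach farther from the line than the 19 higher ones, with miR-146b, miR-210 and miR-10a at the lower right, and open circles are miRNAs listed on 1 array, whose distance is open-ended.

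miR-221 and miR-222, which repress Kit messenger RNA and are cut from 1 locus on chromosome X, were both lower in P815. miR-221 read 13368 in starved BMMC, 13603 in BMMC given SCF, 864 in untreated P815 and 1098.5 in P815 after imatinib, and values on all arrays are given in this order from here on. Where 2 values are given, they are starved BMMC and then P815 after imatinib. It was 5.14-fold lower in the contrast (log2 difference -2.36), and -2.55 on its human-named probe. miR-222 read 3806, 3266, 515 and 605 in the same order of arrays and was 3.01-fold lower. The mismatch probe of miR-222 read 1123 in BMMC without SCF and 786 in P815 with imatinib. In P815 the matched probe was thus dimmer than its mismatch, and the size of that fold is uncertain. Both P815 arrays lay below both BMMC arrays for miR-221 and for miR-222.

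Blood-lineage miRNAs were mixed. Of 12 measured, 10 were listed, 4 were at least 2-fold lower, or 3 at the bounds, and 0 higher, against 15.1% lower over all miRNAs. The median was -0.61 (-0.56 at the bounds), against -0.08 over all miRNAs compared. The 3 are miR-26a, miR-107 and miR-103, which are expressed widely and not in blood cells alone. miR-26a, which restrains the cell cycle, read 9538.5 and 7321 in BMMC and 522 and 787 in P815. Its difference was -2.38, and that of miR-26b was -0.75. miR-107 read 18783, 14431, 847 and 1517 in this order and was 4.61-fold lower, and miR-103, the near-identical member of the pair, read 23694, 17624, 1080 and 1831 and was 3.83-fold lower. miR-223, the myeloid miRNA of granulocytes and monocytes, read 1101 in BMMC without SCF and 717 with SCF and was not listed in P815 (160 and 147.5), which bounds it at 1.93-fold lower.

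The remaining blood-lineage values were smaller. miR-21, a miRNA abundant in many cultured and tumour cells, differed by -0.36, and miR-191 by 0.99, just under 2-fold higher. miR-142-5p, of the locus that marks blood cells in general, was listed on both arrays at 926 and 377 and differed by -0.11. miR-142-3p was listed in BMMC only. The erythroid miR-451 and the lymphoid miR-150 were listed on neither array. miR-144, encoded beside miR-451 on chromosome 11, was listed in BMMC without SCF (552) and not in P815 with imatinib (263). Its bound allows no fold, and it was listed in P815 without imatinib (342.5). The array measures no protein marker of mast cells, so the cell-type labels could be set only against these miRNAs.

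Activation-induced miRNAs did not lie together, and 1 of the 5 listed was 2-fold lower, a share near the 15.1% over all miRNAs. That one, miR-146b, which damps signalling from Toll-like receptors, had the lowest difference among miRNAs listed on both arrays. It read 8607.5 and 6009 in BMMC, 299.0 in untreated P815, where it was not listed, and 333 after imatinib. The difference was -3.34, or 10.1-fold lower, and its mismatch probe differed by 0.08. miR-146a, of the same seed, was at 481 in starved BMMC, near the limit there, and was not listed in P815, where the bound allows no fold. miR-155, which is induced in activated immune cells, read 1126.5 and 609.5 and differed by 0.18. miR-132 and miR-212, which respond to the transcription factor CREB, were listed in BMMC only and have bounds of 1.12-fold and 1.02-fold lower.

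The polycistrons that encode miR-27, miR-24 and miR-23 were lower as a group. All 5 measured members were listed on both arrays. Against a share of 15.1% over all miRNAs, 5 of 5 were at least 2-fold lower, with a median of -2.04. These miRNAs come from a cluster on chromosome 8 (miR-23a, miR-27a and miR-24) and one on chromosome 13 (miR-23b, miR-27b and miR-24), and miR-24 has the same mature sequence in both. miR-27a read 8272 and 6139.5 in BMMC and 768.5 and 547 in P815, a difference of -2.61. miR-27b read 7364, 4508, 615 and 546 and differed by -2.50. miR-23b differed by -2.04 (33040.5 in starved BMMC and 3025 in P815 after imatinib), miR-24 by -2.03 (16166 and 1513) and miR-23a by -1.63 (32354 and 3365). The P815 arrays lay below the BMMC arrays for these 5 miRNAs, and their mismatch probes did not reach 2-fold either way.

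miR-210, the main miRNA induced by hypoxia-inducible factor, read 8727.5 and 8028 in BMMC and 470.0 and 364 in P815. It was 9.76-fold lower in the contrast. Its mismatch probe read 1044 in BMMC without SCF and 500.5 in P815 with imatinib, so that in P815 the matched probe was dimmer than its mismatch and the size of the fold there is uncertain.

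**Figure D2:**
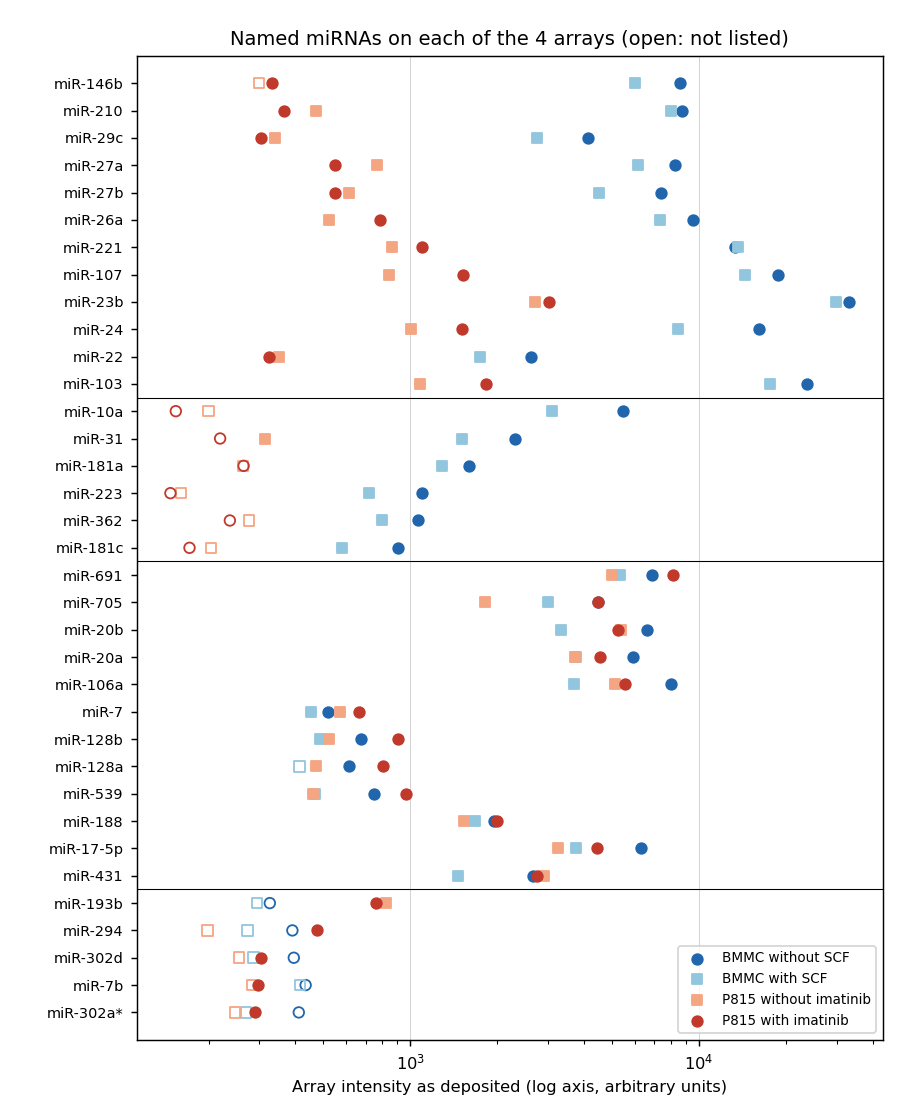
Intensity as deposited (log axis, arbitrary units) of named miRNAs on the 4 arrays, with open symbols where a miRNA was not listed; horizontal lines divide, from the top, lower and listed on both arrays, lower and listed in BMMC only, higher and listed on both, and higher and listed in P815 only. The lower miRNAs are dimmer on both P815 arrays than on both BMMC arrays, whereas miR-20b, miR-20a, miR-106a and miR-17-5p are dimmer in P815 with imatinib than in BMMC without SCF and are higher only after scaling.

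Families that restrain growth or mark differentiation differed in how many members were lower, and their counts are read against the 15.1% over all miRNAs. Of the 9 members of the let-7 and miR-98 family, which represses growth factors and cell-cycle genes, 9 were listed on both arrays and 3 (let-7c, miR-98 and let-7g) were at least 2-fold lower, with a median of -0.93. let-7c read 6530.0 and 5760 in BMMC and 547 and 865.5 in P815, a difference of -1.59. let-7b was the exception at 0.03, and let-7a lay at -0.97. In the miR-29 family, which targets collagens and DNA methyltransferases, miR-29c differed by -2.62 (4138 and 303), miR-29b by -1.40 (27337 and 3026.5) and miR-29a by -0.66 (27947 and 4508). miR-29a and miR-29c, 1 base apart, thus differed unequally.

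The miR-30 family had 4 listed members with a median of -1.37 (-1.14 at the bounds), and 3 were 2-fold lower, 2 of them also at the bound. miR-30b read 8710.5 in BMMC without SCF and 1143 in P815 with imatinib (-1.64), and miR-30d read 1937 and 312 (-1.59). In the miR-15 and miR-16 family, which restrains the cell cycle and represses Bcl2, 1 of 6 listed members, miR-15a at -1.39, was 2-fold lower, a share near that over all miRNAs, and miR-16, at 18088 and 4108, differed by -0.30. miR-34a, a target of p53, was 3.36-fold lower (2519 and 354), and it was the 1 member past 2-fold of 5 listed in its family, again near that share. Its mismatch probe read 495 and 403, brighter than the matched probe in P815, so the size of this fold is uncertain. miR-449 lay at 0.28. The miR-181 family, known from lymphocyte development, was split: miR-181a was at least 2.89-fold lower and miR-181c at least 1.55-fold lower, neither listed in P815, whereas miR-181b and miR-181d were listed on both arrays and differed by 0.03 and -0.01.

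Of 4 Hox-locus miRNAs measured, 3 were listed, and 1, miR-10a, was at least 2-fold lower at its bound, as were 31 of the 259 miRNAs compared. miR-10a, from the Hoxb cluster, read 5454 and 3087 in BMMC, and 200.2 and 154 in P815, where it was not listed. This makes it at least 8.74-fold lower, with -3.13 as the log2 bound. miR-10b was listed only in BMMC without SCF, at 646, and has a bound of 1.10-fold. miR-196b was listed on both arrays and differed by 0.78, with a mismatch probe brighter than the matched one on both arrays (641 and 732.5 against 468 and 331). miR-196a was listed on neither array. The list's median was -1.30, or -0.13 at the bounds, and 0.78, the value of miR-196b alone, where detection on both arrays was asked for.

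The miR-99, miR-100 and miR-125 list had 3 listed members, none listed in P815, a median of -0.94 (-0.18 at the bounds) and 0 members past 2-fold at the bound. Outside the lists, miR-31, a miRNA lost in several tumour types, read 2297 in BMMC without SCF and 219 in P815 with imatinib, where it was not listed, and was at least 4.30-fold lower. miR-22 differed by -1.97 (2616 and 325). miR-362, listed in BMMC only, was at least 1.86-fold lower.

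**Figure D3:**
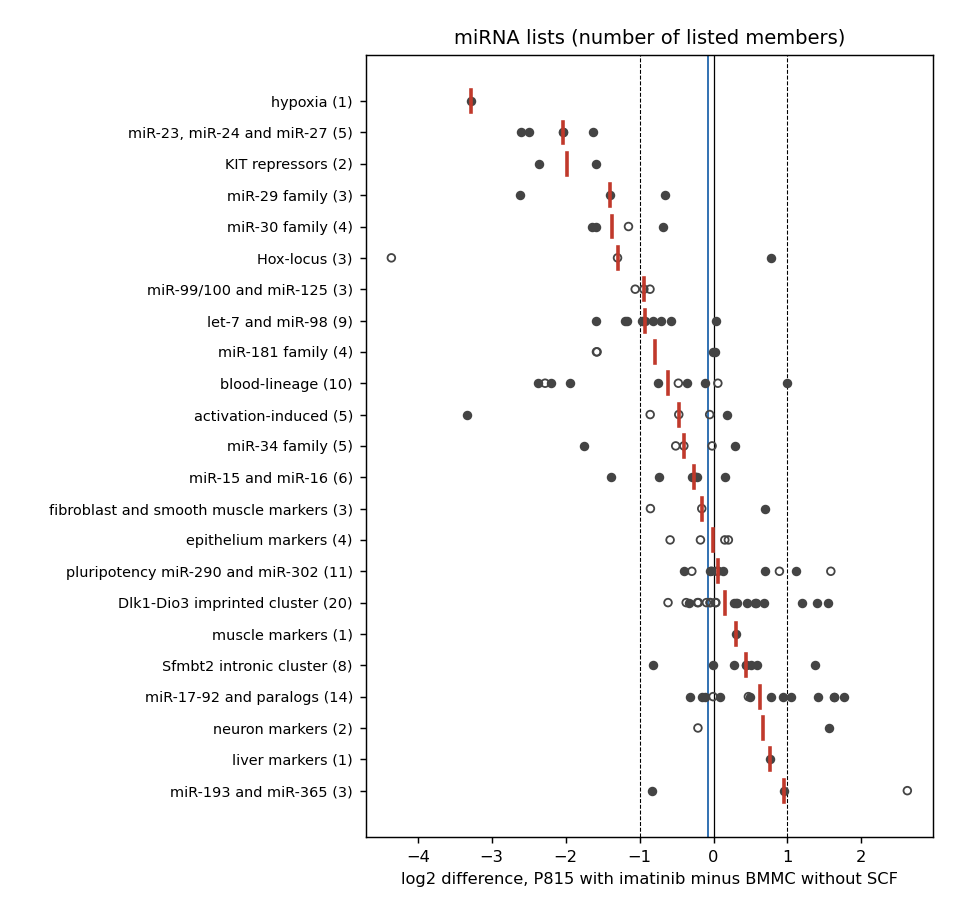
Differences of the listed members of each list (points; open where listed on 1 array), with the list median as a red bar, the median of all 259 miRNAs as a blue line at -0.08 and dashed lines at 2-fold. The 5 miRNAs of the polycistrons with miR-27 all lie below -1, the miR-17-92 list has 5 members above 1, and the points of several other lists lie on both sides of 0.

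In the list for the miR-17-92 cluster and its paralogs, 5 of 14 listed members were at least 2-fold higher after scaling and 0 were lower. The share higher over all miRNAs was 7.34%, and the median of the list was 0.63. Of the 14, 4 lay below 0. miR-20b read 6624 and 3331 in BMMC and 5365 and 5228 in P815, with a normalized difference of 1.76. On the other probes for miR-20b the difference was 0.95 (human-named) and -0.16 (rat-named). miR-20a differed by 1.63 (5892 and 4532), miR-106a by 1.62 (8009 and 5527, and 1.68 on its human-named probe), miR-17-5p by 1.42 (6319.5 and 4434.5) and miR-25 by 1.04.

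Within this list the members were not alike. miR-106b lay at -0.31 and miR-18a at -0.16, and miR-19b, a member of the same chromosome 14 transcript as miR-17-5p, at -0.11. miR-363-3p, from the X chromosome cluster of miR-20b and miR-106a, was compared but is not on the list. It lay lower, at -0.71. The 4 miRNAs with the AAAGUGC seed that passed 2-fold did not pass it with every scaling. With median centring miR-20b lay at 0.89, miR-20a at 0.85, miR-17-5p at 0.72 and miR-106a at 0.69, with 75th percentile scaling they lay between 0.72 and 0.92, and with cyclic loess miR-17-5p lay at 0.96. Without scaling, where the median of all miRNAs compared was -1.29, they lay between -0.53 and -0.33.

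Some other miRNAs, among them miR-193b and miR-691, were higher in deposited intensity as well as after scaling. miR-193b, encoded close to miR-365 on chromosome 16, was listed on both P815 arrays (820.5 and 761) and on neither BMMC array (326 and 295), where it is bounded at 4.18-fold higher in P815. Of the 19 higher miRNAs it was the 1 that stayed past 2-fold without scaling. Its mismatch probe differed by 0.79. miR-365 differed by 0.95 but was dimmer in P815 as deposited (790 and 691), and miR-193a, of the same seed as miR-193b, differed by -0.83. miR-691 read 6853 and 5317.5 in BMMC and 4992 and 8140 in P815, a difference of 2.29. miR-705 read 4457 and 2995.5 in BMMC and 1821 and 4481 in P815, a difference of 1.85. Without scaling miR-691 differed by 0.26 and miR-705 by 0.02. Neither has a mismatch probe, and both were identified in the mouse.

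miR-128, a miRNA best known from neurons and lymphocytes, was carried by the probes miR-128a and miR-128b, which match the same RefSeq mature sequence. The 2 names are counted separately among the 19 higher miRNAs. The probe for miR-128b read 675 in BMMC without SCF and 907 in P815 with imatinib and differed by 1.56, and that for miR-128a read 613 and 806 and also differed by 1.56. miR-7, a repressor of growth factor receptor signalling, read 520.5 and 666 and differed by 1.56, with 1.32 on its rat-named probe. miR-188 read 1950.2 and 2002 and differed by 1.55. Its neighbour on the X chromosome, miR-362, was lower, as given before. The mismatch probes of miR-128a, miR-128b, miR-7 and miR-188 differed by 0.50, 0.52, 0.46 and 0.81, the same way as the matched probes and by less.

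The lists for the embryonic, Sfmbt2 and imprinted clusters held 2 of 11, 1 of 8 and 3 of 20 listed members that were 2-fold higher, shares above the 7.34% over all miRNAs but resting on few miRNAs. In the miR-290 and miR-302 clusters, which mark pluripotent cells, 11 of 15 measured members were listed, 2 were higher and 0 lower, and the median was 0.06. miR-294 was listed only in P815 with imatinib (477, against 390 in starved BMMC) and was at least 2.60-fold higher, but its mismatch probe was brighter there, at 871.5, and differed by 2.39. miR-291a-3p was 2.17-fold higher after scaling, but before it read 433 in P815 with imatinib against 486 in starved BMMC. miR-302d, miR-302a* and miR-7b were listed in P815 only and have bounds of 1.63-fold, 1.54-fold and 1.60-fold higher. In the Sfmbt2 intronic cluster, a rodent family of closely similar miRNAs, 8 members were listed with a median of 0.43, and 1, miR-467b at 1.37, was 2-fold higher, but lay at 0.53 with median centring.

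The list for the Dlk1-Dio3 imprinted cluster on chromosome 12, expressed from the maternal chromosome, had 20 of 42 measured members listed, 3 higher, 0 lower and a median of 0.16. The list leaves out some listed miRNAs of this region, among them miR-432, miR-453, miR-493-3p, miR-299-3p and miR-409-3p. miR-539 and miR-381 are its members that the study named from these samples. miR-539 read 748 and 468 in BMMC and 461 and 969 in P815, a difference of 1.55, and its mismatch probe differed by 1.68. miR-381 read 700.0 and 416 in BMMC and 243 and 448 in P815, was listed on the first and the last of these arrays, and differed by 0.57, but by -0.40 on its rat-named probe. miR-431 differed by 1.40 on its mouse-named probe and by -0.13 on its human-named probe. miR-485-3p differed by 1.19, and by 0.82 on its human-named probe.

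Markers of other cell types were listed in part, and a few lay well above the limits of 444 in starved BMMC and 270.0 in P815 after imatinib. Of the muscle markers, 1 of 6 measured was listed (miR-206, at 2653 and 1475, with a mismatch probe of 1677 and 1481.5), and miR-1 and miR-133a were not. Of the neuron markers, 2 of 7 were listed, miR-128a and miR-124a, the latter in BMMC only. Of the epithelium markers, 4 of 7 were listed, each in BMMC only and between 458 and 488 there, close to the limit. Of the fibroblast and smooth muscle markers 3 of 6 were listed, with miR-214 at 4969 and 2920, and of the liver markers 1 of 3. The endothelial miR-126 was not listed. The summed intensity of the lists lay between 390.5 and 7062 in BMMC without SCF and between 197 and 3847 in P815 with imatinib.

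The same cell-type difference was then read in the KIT-active pair, P815 without imatinib minus BMMC with SCF, which shares no array with the contrast but was normalized together with it. Of 191 miRNAs listed in each pair, 149 (78.0%) had the same sign, and so had 32 of 40 (80%) virus and worm probes, so the share of miRNAs with the same sign was not above that background. Of the 36 that were at least 2-fold lower here, 31 (86.1%) were so in the KIT-active pair, and these are 54.4% of the 57 lower there. Of the 17 that were higher here, 15 (88.2%) were so in that pair, or 41.7% of the 36 higher there. Among the virus and worm probes, 1 of the 2 lower here and 3 of the 6 higher here were so in that pair. Across the 191 miRNAs the differences correlated at r = 0.78 and rho = 0.72, and over the virus and worm probes at r = 0.64. The points share arrays, labelling and probes, so these correlations are descriptions.

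Most leading miRNAs kept their direction in the KIT-active pair, though not always their size. The differences there were -3.57 for miR-146b, -2.88 for miR-210, -2.34 for miR-221, -2.56 for miR-107 and -1.51 for miR-23b. They were 2.44 for miR-20b, 2.19 for miR-106a, 1.62 for miR-691 and 2.91 for miR-193b. miR-27a lay at -1.63 against -2.61 here, miR-27b at -1.55 against -2.50 and miR-705 at 1.01 against 1.85. let-7g lay at -0.22 against -1.18, and miR-19b at 0.95 against -0.11. Over the 191 miRNAs listed in each pair, the SD of the difference between pairs was 0.78, and 26 lay at least 2-fold apart.

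The 6 miRNAs listed on all 4 arrays that lay farthest above the KIT-active pair were miR-698, miR-689, miR-471, miR-7*, miR-207 and miR-346. miR-698 read 1302.5 and 2246 in BMMC and 312 and 1158.5 in P815, and differed by 0.87 here and by -2.16 in the KIT-active pair. miR-689, for which the gene table holds no gene, differed by 0.45 and -2.0, and miR-471, coded on the X chromosome, by 0.32 and -1.89. miR-7* differed by 0.73 and -0.97, miR-207 by 0.72 and -0.46 and miR-346 by 0.90 and -0.24. miR-689, miR-207 and miR-346 were brighter without than with SCF in BMMC, and each of the 6 was brighter with than without imatinib in P815. miR-485-3p, not listed in P815 without imatinib, was the 1 miRNA past 2-fold in opposite directions, at 1.19 and -1.46.

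Farthest below the KIT-active pair were miR-703, miR-568, miR-466, miR-713, miR-452* and miR-669c. miR-703 read 1827.5 and 1434 in BMMC and 1667 and 823 in P815, and differed by -0.13 here and by 1.77 in the KIT-active pair. miR-568 differed by -0.29 and 1.06, and its mismatch probe was brighter than the matched one on both arrays (3490 and 1483 against 1964 and 798). miR-466 differed by -0.82 and 0.52, miR-713 by -0.37 and 0.81, miR-452* by 0.05 and 1.19 and miR-669c by 0.28 and 1.38. Each of these 6 was dimmer with than without imatinib in P815.

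**Figure D4:**
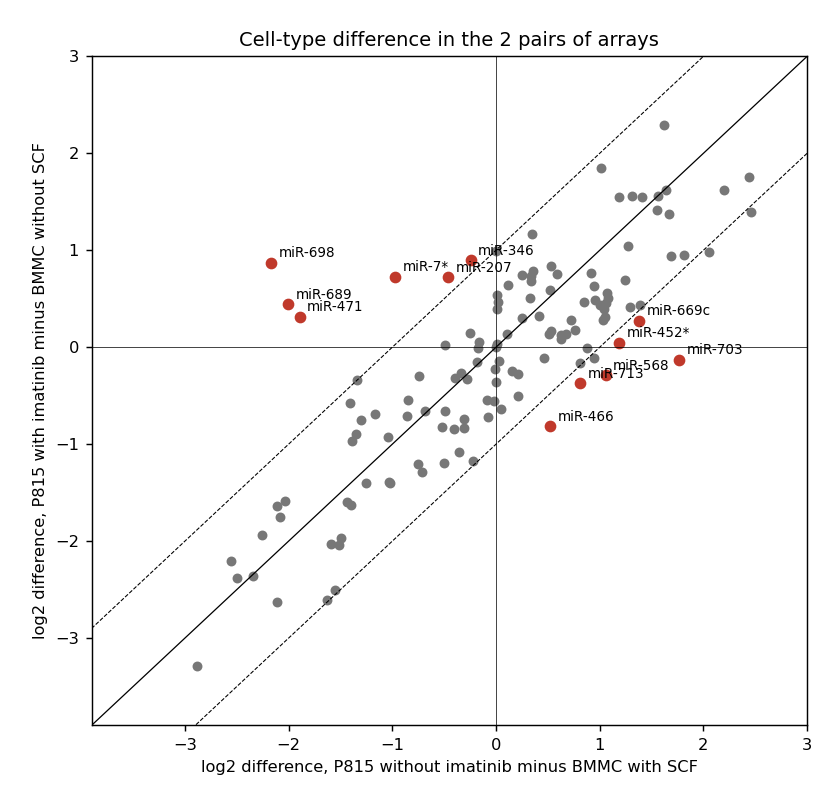
Difference between the cell types for the 130 miRNAs listed on all 4 arrays, in the KIT-active pair (horizontal) and in P815 with imatinib minus BMMC without SCF (vertical), both in log2, with the line of equality and dashed lines 2-fold to either side. Most points follow the line, and the 12 in red depart most, with miR-698, miR-689 and miR-471 above it and miR-703 below it.

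Probes for the same miRNA under several species names show how far a value depends on the probe. They share the same 2 arrays, so their gaps hold no variation between arrays or cultures. For 59 miRNAs with more than 1 such probe, the median gap between their differences was 0.24 and the 95th percentile 1.05, and 47 had 1 sign on every probe. Of 10 miRNAs past 2-fold that had several probes, 7 were past 2-fold on every one. Of 24 seed families with at least 2 listed mature sequences, 13 had members of 1 sign only, among them miR-27, miR-103 and miR-107, miR-221 and miR-222, and miR-29. The AAAGUGC family was not one of these, since miR-106b lay below 0.

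The direction of the lower lists did not turn under any of 7 alternatives of scaling or background correction, and that of the higher lists turned under 1. The medians of the miR-17-92, miR-193 and miR-365, Sfmbt2, miR-290 and miR-302 and Dlk1-Dio3 lists were above 0 as reported and below 0 without scaling between arrays, where the median of all miRNAs moved by -1.21. Relative to that median, 42 miRNAs were lower and 22 higher without scaling, and these held 37 of the 39 and 14 of the 19 given before.

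**Figure D5:**
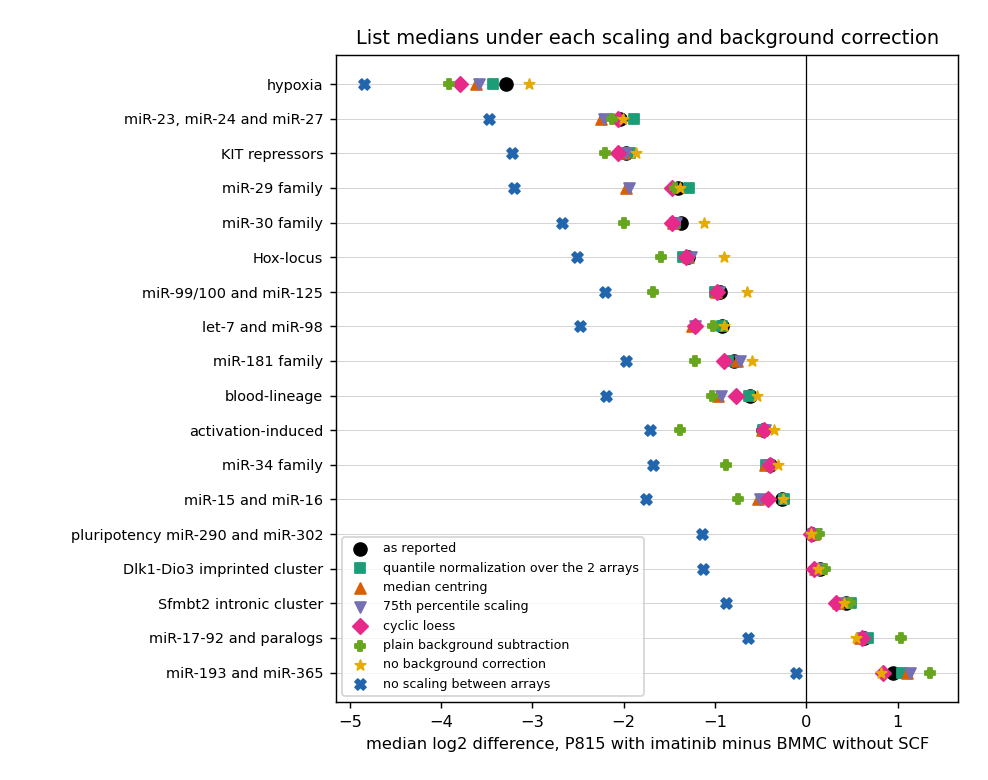
Median log2 difference of each list as reported and under 7 alternatives of scaling or background correction, with a line at 0. The lists from hypoxia to miR-15 and miR-16 lie below 0 under each, and the 5 lists at the bottom lie above 0 except without scaling between arrays.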

How the data were processed

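Total RNA, 10 µg per sample, was labelled with Cy3 by RNA ligase, per the labels' protocols, and hybridized to 1 array per group. The deposited array files give 1 linear intensity per feature, the mean of foreground medians, per the file headers. The sources used here do not give the array maker or scanner. The authors' processed intensity values matched the array intensity minus the median mismatch probe, times 1 factor per array, and were blank under 1.5 times that median; they were used for this limit only. The number of arrays limits the precision.

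Intensities were corrected with normexp (limma 3.58.1, R 4.3.3, offset 50), log2-transformed and quantile normalized over the 4 arrays on all perfect-match miRNA probes. The steps were also run on simulated arrays in which equal numbers of bright probes were raised and lowered. That setting does not cover dim probes or unequal numbers, as found here. A mouse miRNA was read from its mouse-named probe (167), otherwise the human-named (206) or rat-named one (16), by gene names of GRCm38.p6: 379 had a gene and 10 did not. A bound compares the listed value with the probe's own value on the other array or that array's lowest normalized value among listed probes, whichever is higher. Named miRNAs are the 12 with the largest difference each way among those listed on both arrays, the 6 with the largest bound each way on 1 array, up to 4 per list, the 6 departing most each way from the KIT-active pair, and 2 that the study named; further list members are given beside them and were chosen with their values known. The members and the 24 lists were chosen with earlier results of these data known. Sequences and coordinates are RefSeq's.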

Additional observations from a re-analysis of the deposited data

Results flagged for a closer look

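Of the miRNAs named, 17 that were compared in each pair of arrays lay on opposite sides of 0 in P815 with imatinib minus BMMC without SCF and in the KIT-active pair. The difference between pairs was not tested, since each pair holds 1 array of each cell type. The log2 difference here less that in the KIT-active pair was 3.04 for miR-698, 2.65 for miR-485-3p, 2.45 for miR-689, 2.21 for miR-471, 1.70 for miR-7*, 1.18 for miR-207, 1.14 for miR-346 and 0.51 for miR-181b. It was -1.90 for miR-703, -1.35 for miR-568, -1.34 for miR-466, -1.18 for miR-713, -1.06 for miR-19b, -0.97 for miR-18a, -0.90 for miR-34b, -0.74 for miR-34c and -0.58 for miR-142-5p. Of these, miR-485-3p, miR-34b and miR-34c were not listed on every array, so their differences are open-ended.

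Of the control probes, 2 bacterial spike sequences gave a signal well above the mismatch median on each of the 4 arrays. The signal of both was highest on the array of P815 with imatinib, where that median was 180.0. Bio C Spike read 23761.2 there, against 4648 in starved BMMC, 4043 in BMMC given SCF and 3136.5 in untreated P815. Bio B Spike read 3184 there, against 2909.5, 1454 and 1455 in the same order. After normalization they differed between P815 with imatinib and BMMC without SCF by 3.62 and 1.44, whereas the 5 Lambda spikes differed by -0.02 to 0.35. The tRNA-Gly control read 3266 in P815 with imatinib and 3979.5 in starved BMMC, and differed by 1.23. The part of these controls in the differences of miRNAs was not tested.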

How the results depend on the processing

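No paired analysis was possible because each group has 1 array, which also leaves every value without a replicate error, and signal close to the mismatch median limits the dim miRNAs. Without scaling between arrays, 1 miRNA was at least 2-fold higher and 171 lower, 1 and 93 were so in both pairs, and 2 and 272 of the probes were higher and lower; there miR-106a lay at -0.53, miR-17-5p at -0.51, miR-20a at -0.37, miR-20b at -0.33, miR-291a-3p at -0.024 and miR-467b at -0.70. With plain background subtraction, 42 miRNAs were higher and 62 lower, 24 were higher in both pairs, and 64 and 86 probes were higher and lower. With median centring, 4 were higher in both pairs, against 15 as reported, and with detection on both arrays 19 were lower in both pairs, against 31. The median of the Hox-locus list was 0.78 with detection on both arrays. The cause of these shifts was not tested, except that the last rests on 1 miRNA. Of the 39 lower miRNAs, 37 remained with median centring, 39 with cyclic loess and 31 without background correction, and of the 19 higher ones 13, 16 and 17. Over 13 alternatives, 249 values of list medians moved by less than the SD over virus and worm probes (0.56), 44 moved by more and 1 was labelled reversed. Among values of named miRNAs these counts were 1023, 161 and 6. The reversed label does not count every change of sign. Without scaling alone, the medians of the miR-17-92 and Dlk1-Dio3 lists, among others, went from above 0 to -0.64 and -1.13, and several named miRNAs also changed sign.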
